A study of Mus musculus with 6 samples.

Results

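The 10 genes described here are transcribed preferentially in atrial muscle cells of the heart: Myl4, Myl7, Sln, Bmp10, Stard10, Kcnj3, Kcnj5, Gja5, Pam and Fgf12. They were taken by symbol from a table of 25901 rows of gene expression in mouse hearts. All 10 were found, and where a symbol stood in more than 1 row (Pam only) the row with the highest mean was used. RNA came from 3 SRAKO hearts (SRAKO2365, SRAKO2371 and SRAKO2372) and 3 WT hearts (WT2368, WT2379 and WT2378). Mice of both genotypes had received isoproterenol, a beta-adrenergic agonist, for 4 weeks, so no untreated heart enters any value. SRA, the steroid receptor RNA activator encoded by Sra1, is an RNA coactivator of nuclear receptors. The labels give the tissue as heart. They give neither the age, sex, strain or litter of the mice, nor which part of Sra1 was removed, nor how the atria were treated at dissection. The numbers in the titles differ for each heart, and no label says that each heart is another animal's. The p-values therefore measure the spread between these samples.

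Atrial and ventricular muscle cells build the same kind of sarcomere from partly different parts. Atrial cells use the essential myosin light chain MYL4 and the regulatory light chain MYL7, where ventricular cells use MYL3 and MYL2. Atrial cells hold back their calcium pump mainly with sarcolipin, where ventricular cells use phospholamban. They are also secretory, storing natriuretic peptide in granules, and they slow down on vagal stimulation through a potassium channel that ventricular cells hold less of. In bulk RNA of a heart, fewer cells of a type and less RNA per cell cannot be told apart.

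Expression is given as FPKM, fragments per kilobase of transcript scaled to the sequenced total, as the authors deposited it. The files hold no read counts, so the counting error of a value cannot be stated. Steps between the lowest values gave an FPKM of 1 as 10853 to 13099 aligned bases per kilobase in SRAKO hearts and 8296 to 11762 in WT hearts. Only 58.7% to 64.8% of the low values lay within 0.05 of a whole step, so these depths are approximate. SRAKO2371 and WT2368 stood apart by their mitochondrial ribosomal RNA, with mt-Rnr1 at 1896 and 4548 FPKM, against 879 to 1122 in the other 4 hearts. Sra1, the targeted gene, was at 1.96, 1.78 and 2.05 FPKM in SRAKO2365, SRAKO2371 and SRAKO2372, against 4.40, 6.31 and 4.23 in WT2368, WT2379 and WT2378. All 3 SRAKO hearts lay below all 3 WT hearts, in the direction of the labels. SRAKO minus WT came to -1.01 ± 0.14 in log2 (SE; adjusted p = 0.258, Benjamini-Hochberg in limma; exact two-sided permutation p = 0.1, the smallest that 3 against 3 allow). The row of Sra1 also holds 1 transcript of the neighbouring gene Apbb3. Myh6, the main myosin heavy chain of adult mouse heart, averaged 2611 ± 119 FPKM in SRAKO hearts and 2600.2 ± 180.4 FPKM in WT hearts (SD, n = 3 each).

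All 10 genes code for proteins. They lie on 8 chromosomes of GRCm38 in GENCODE M21, reached through the transcript identifiers of the table, because the table has no coordinates. Myl4 (104550663 to 104595753, plus strand) and Myl7 (5896637 to 5898782, minus strand) are both on chromosome 11, and Sln (53850164 to 53854560, plus strand) and Kcnj5 (32314707 to 32344350, minus strand) are both on chromosome 9. Bmp10 is on chromosome 6 (87428994 to 87437677, plus strand), Stard10 on chromosome 7 (101317086 to 101346626, plus strand) and Kcnj3 on chromosome 2 (55435970 to 55598145, plus strand). Gja5 is on chromosome 3 (96904693 to 97077416, plus strand), Pam on chromosome 1 (97795114 to 98095646, minus strand) and Fgf12 on chromosome 16 (28160098 to 28753068, minus strand). Exons of Myl4, Kcnj3 and Gja5 overlap a gene on the other strand, namely Gm22000, Gm26794 and Gpr89, and exons of Pam overlap B230216N24Rik on the same strand. The labels do not state a stranded library, so reads of these overlaps cannot be assigned. The deposited annotation terms that most members share are broad: 6 of 10 carry the term membrane, as do 37.4% of all tested rows. Kcnj3 and Kcnj5 share the term for G-protein activated inward rectifier channels, and they are the only 2 tested rows (0.0196%) that hold it.

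RefSeq promoter sequences on GRCm38.p6 were matched for 9 of the 10 genes. The 250 bases before the start are shown for Bmp10, which differed most between hearts, and for Kcnj3 and Kcnj5, whose genotypes did not overlap. Capitals mark the motifs searched on either strand: AGGTGT for T-box factors, AGATAA for GATA factors, AGGTCA for nuclear receptors, and CTA, any 4 bases and TAG for MEF2. No 2 marked motifs overlap. The windows are chr6:87428744-87428993 on the plus strand for Bmp10, chr2:55435720-55435969 on the plus strand for Kcnj3 and chr9:32344345-32344594 on the minus strand for Kcnj5, each written 5′ to 3′.
Bmp10: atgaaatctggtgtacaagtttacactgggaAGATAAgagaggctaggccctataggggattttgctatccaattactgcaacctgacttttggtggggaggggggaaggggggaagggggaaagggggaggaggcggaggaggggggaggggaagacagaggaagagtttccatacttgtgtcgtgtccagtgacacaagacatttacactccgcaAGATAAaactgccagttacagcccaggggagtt
Kcnj3: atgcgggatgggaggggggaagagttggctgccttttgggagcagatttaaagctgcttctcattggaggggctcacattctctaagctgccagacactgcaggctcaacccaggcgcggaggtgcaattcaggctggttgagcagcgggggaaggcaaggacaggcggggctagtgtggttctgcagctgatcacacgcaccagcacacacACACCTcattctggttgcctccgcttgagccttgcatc
Kcnj5: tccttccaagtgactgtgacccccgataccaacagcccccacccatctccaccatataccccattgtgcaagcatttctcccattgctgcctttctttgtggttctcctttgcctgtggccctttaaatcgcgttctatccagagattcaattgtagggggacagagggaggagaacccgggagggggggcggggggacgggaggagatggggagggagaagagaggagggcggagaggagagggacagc
Bmp10 held the GATA motif at 2 places, 219 to 214 and 33 to 28 bases before the start, and 9.99% of the 32851 RefSeq promoters hold it in the same window. Kcnj3 held the T-box motif 38 to 33 bases before the start, read on the other strand, and 11.8% of all promoters hold it. The window of Kcnj5 held none of the 4 motifs. Over 13 promoter windows of the 9 genes, the T-box motif occurred in 2 genes (Kcnj3 and Fgf12), the GATA motif in 1 (Bmp10), the nuclear receptor motif in 1 (Fgf12, against 14% of all promoters) and the MEF2 motif in 0 (against 3.2% of all promoters). A gene was counted when any of its windows held the motif, and Fgf12 has 4 windows. The shares of all promoters are per single window, so the 2 measures are not alike. A match of letters is a description and not a binding site.

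No atrial gene passed the test between genotypes, and all 10 had a mean below WT in SRAKO hearts. Expression was tested as log2(FPKM + 1) with limma over the 10201 rows that reached 1 FPKM in 3 or more hearts, a filter that all 10 genes passed. After Benjamini-Hochberg adjustment at 0.05, limma called 0 of the 10 genes, against 2 of all rows (0.0196%). At an unadjusted p under 0.05 there were 2 of 10, Kcnj3 and Kcnj5, both lower, where 3.46% of all rows were past that level, 1.56% lower and 1.9% higher. The median log2 difference of the 10 genes was -0.29, against 0.01 over all tested rows, of which 46.5% had a negative difference. The 10 genes are not 10 independent readings, since they share the same hearts and many vary together among them. Without WT2379 the median was -0.14, and 7 of 10 genes had a negative difference. Without SRAKO2371 and WT2368, the hearts with most mitochondrial ribosomal RNA, all 10 were negative, from -0.60 for Sln to -0.20 for Kcnj5, and 0 passed the same adjusted limma test. That fit kept 2 hearts per genotype, WT2379 among them. With array weights, by which limma gives each heart a weight of its own, several differences lay farther from 0. They were -0.49 for Myl4, -0.39 for Myl7, -0.49 for Sln, -0.49 for Pam, -0.54 for Fgf12 and -0.45 for Stard10. The remaining members lay slightly nearer 0, at -1.47 for Bmp10, -0.40 for Kcnj3, -0.29 for Kcnj5 and -0.187 for Gja5. With these weights 0 of the 10 genes passed.

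**Figure D1:**
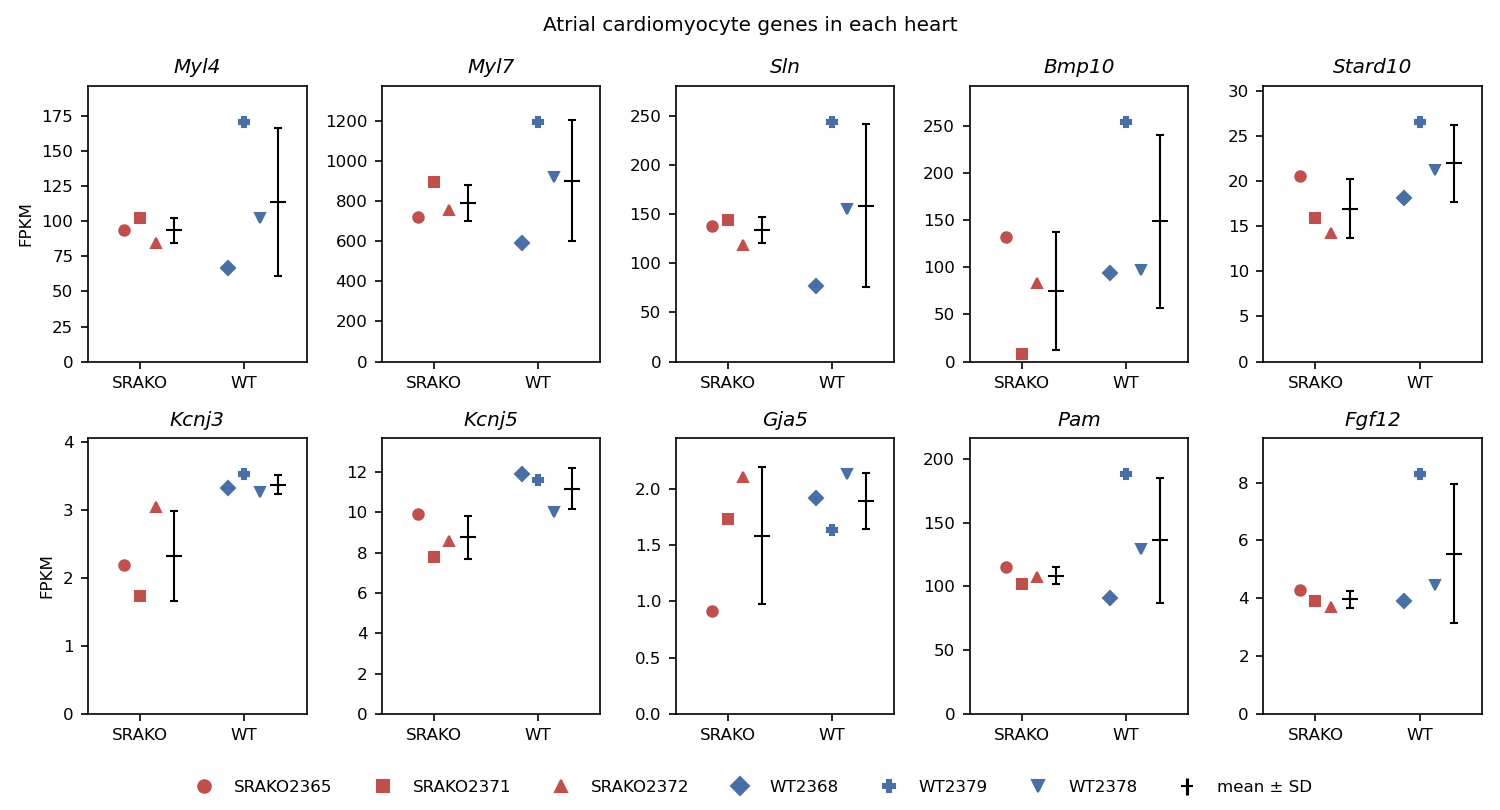
FPKM of each atrial gene (vertical axes, linear from 0) in 3 SRAKO and 3 WT hearts, 1 point per heart, with the mean and SD of each genotype beside the points. WT2379 is the highest point in 8 of the 10 panels, and only Kcnj3 and Kcnj5 show no overlap between the genotypes.

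The atrial myosin light chains differed between hearts of the same genotype more than between genotypes. Myl7, the atrial regulatory light chain, was the most abundant member and ranked 40 of 25901 rows by mean FPKM. It had 721, 895 and 757 FPKM in SRAKO2365, SRAKO2371 and SRAKO2372, against 593, 1195 and 919.6 FPKM in WT2368, WT2379 and WT2378. All SRAKO values lay inside the WT range. The mean was 791 ± 91.8 FPKM in SRAKO hearts and 903 ± 301 FPKM in WT hearts (SD, n = 3 each), and the log2 difference was -0.14 ± 0.24 (SE; adjusted p = 0.999, Benjamini-Hochberg in limma). Without WT2379 it was 0.09, with the sign turned.

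Myl4, the atrial essential light chain, repeated this order of WT hearts at a lower level. It had 93.4, 103 and 84.3 FPKM in SRAKO2365, SRAKO2371 and SRAKO2372, against 66.9, 171 and 103 FPKM in WT2368, WT2379 and WT2378. The lowest and the highest heart were both WT, so the SRAKO values again lay inside the WT range. In log2, SRAKO minus WT was -0.18 ± 0.30 (SE; adjusted p = 0.999, Benjamini-Hochberg in limma), and 0.17 without WT2379.

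Sln encodes sarcolipin, a small membrane peptide that inhibits the calcium pump SERCA. It had 138, 144 and 119 FPKM in SRAKO2365, SRAKO2371 and SRAKO2372, against 77.3, 243 and 155 FPKM in WT2368, WT2379 and WT2378. SRAKO hearts spanned a narrow band within a WT range of more than 3-fold (3.15 between the highest and lowest heart). The genotypes differed in log2 by -0.10 ± 0.36 (SE; adjusted p = 0.999, Benjamini-Hochberg in limma), and 0.28 without WT2379.

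Pam encodes the enzyme that amidates peptide ends and is a main membrane protein of atrial secretory granules. It had 115, 102 and 107 FPKM in SRAKO2365, SRAKO2371 and SRAKO2372, against 91.0, 188 and 129 FPKM in WT2368, WT2379 and WT2378. WT2368 was the lowest and WT2379 the highest heart, as for Myl4, Myl7 and Sln. On the log2 scale, SRAKO differed from WT by -0.27 ± 0.24 (SE; adjusted p = 0.999, Benjamini-Hochberg in limma), and SRAKO hearts held 98.3% of the WT mean without WT2379, against 79.5% with it. Summing it with the second row of Pam, joined to B230216N24Rik, left the difference at -0.27.

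The atrial share of each heart was read from pairs of an atrial gene and its ventricular counterpart. FPKM is scaled by transcript length and allows genes to be set side by side. The level of a share depends on the pair, with SRAKO means of 34.0% for Myl7, 7.79% for Myl4 and 41.4% for Sln. A share therefore compares hearts within 1 pair and does not give the part of a heart that is atrial. Myl7 made up 32.6%, 37.2% and 32.3% of the sum of Myl7 and Myl2 in SRAKO2365, SRAKO2371 and SRAKO2372, against 31.7%, 50.1% and 36.5% in WT2368, WT2379 and WT2378. WT2379 alone held as much of the atrial as of the ventricular chain, and the other 5 hearts lay close together. The means were 34.0% ± 2.74 in SRAKO hearts and 39.5% ± 9.56 in WT hearts (SD, n = 3 each), a difference of -5.44 percentage points (exact two-sided permutation p = 0.7). Without WT2379 that difference was -0.095 points.

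The other pairs also had WT2379 highest and WT2368 lowest. Myl4 made up 7.61%, 8.57% and 7.18% of Myl4 and Myl3 in SRAKO2365, SRAKO2371 and SRAKO2372, against 6.73%, 15.5% and 7.52% in WT2368, WT2379 and WT2378 (exact two-sided permutation p = 0.9, n = 3 each). Sln made up 41.3%, 45.1% and 37.9% of Sln and Pln, against 32.2%, 55.7% and 44.0% in the same order (exact two-sided permutation p = 0.8, n = 3 each). In each of the 3 pairs the highest and the lowest share belonged to WT hearts, and SRAKO2371 was the highest of the SRAKO hearts. Without WT2379 the difference of means, SRAKO minus WT, was 0.67 points for Myl4 and 3.31 points for Sln, against -2.13 and -2.56 points with all hearts.

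**Figure D2:**
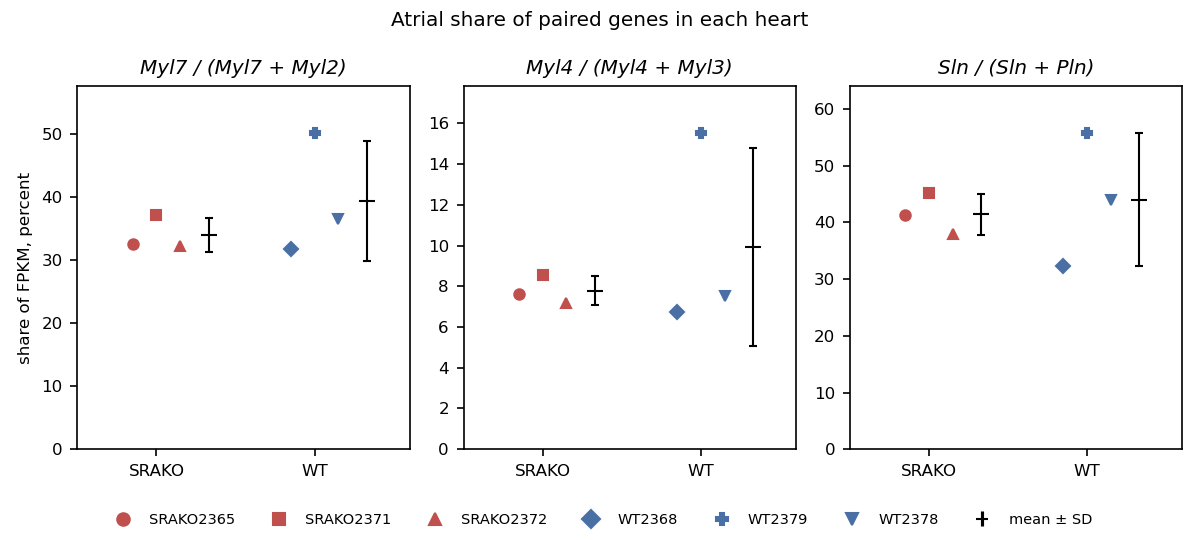
Percent of FPKM contributed by the atrial gene of each pair (vertical axes, from 0) in 3 SRAKO and 3 WT hearts, 1 point per heart, with the mean and SD of each genotype. WT2379 stands highest in all 3 panels, at 50.1%, 15.5% and 55.7%, and WT2368 lowest.

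WT2379 was not the highest heart for any of the ventricular counterparts Myl2, Myl3 and Pln. Myl2 had 1492, 1512 and 1588 FPKM in SRAKO2365, SRAKO2371 and SRAKO2372, against 1277, 1188 and 1601 FPKM in WT2368, WT2379 and WT2378, so WT2379 was the lowest heart for this gene. Myl2 had a log2 difference of 0.19 ± 0.14 and Myl3 of 0.10 ± 0.15 (SE; adjusted p = 0.999 each, Benjamini-Hochberg in limma). Single WT hearts moved both values: Myl2 was 0.098 without WT2379 and 0.31 without WT2378, and Myl3 was 0.030 without WT2368, 0.031 without WT2379 and 0.25 without WT2378. Pln averaged 188 ± 11.6 FPKM in SRAKO hearts and 184 ± 18.99 FPKM in WT hearts (SD, n = 3 each). Summed over the 10 atrial genes, FPKM came to 1238, 1283 and 1182 in SRAKO2365, SRAKO2371 and SRAKO2372, against 962, 2103 and 1445 in WT2368, WT2379 and WT2378. Myl7 alone supplied 58.2% to 69.8% of that sum in SRAKO hearts and 56.8% to 63.7% in WT hearts. The sum was 0.222% to 0.232% of all FPKM in SRAKO hearts and 0.162% to 0.407% in WT hearts.

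Bmp10 had the widest range of the 10 genes, 31.2-fold between the highest and the lowest heart. It encodes a secreted ligand of the BMP family, made in adult mouse heart mainly by the right atrium, that acts on ALK1 on endothelium. Bmp10 had 133, 8.15 and 83.1 FPKM in SRAKO2365, SRAKO2371 and SRAKO2372, against 94.0, 254 and 97.5 FPKM in WT2368, WT2379 and WT2378. SRAKO2371 lay far below every other heart and WT2379 far above, while the remaining 4 overlapped. SRAKO minus WT came to -1.51 ± 0.93 in log2 (SE; adjusted p = 0.999, Benjamini-Hochberg in limma; exact two-sided permutation p = 0.4). It was -0.33 without SRAKO2371 and -1.05 without WT2379.

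SRAKO2371 was the lowest heart for Kcnj3 and Kcnj5 as well as Bmp10, but not for Myl4, Myl7, Sln or Pam. Against 100 FPKM of Myl7, Bmp10 stood at 18.4, 0.910 and 11.0 in SRAKO2365, SRAKO2371 and SRAKO2372 and at 15.8, 21.3 and 10.6 in WT2368, WT2379 and WT2378. In the same heart Sln stood at 16.1 per 100 of Myl7, within the 13.0 to 20.4 of the WT hearts, and Pam at 11.4, below the 14.1 to 15.7 of the WT hearts. SRAKO2371 was also the heart with most fat marker RNA, with the 10 markers summing to 353 FPKM, against 64.3 and 158 in the other SRAKO hearts and 69.2 to 103 in WT hearts. It likewise held the highest sum of 12 neuron and ganglion markers, 18.2 FPKM, against 7.36 and 9.0 in the other SRAKO hearts and 9.56 to 10.4 in WT hearts. Their part in the Bmp10 value was not tested.

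Kcnj3 and Kcnj5 were lower in every SRAKO heart than in any WT heart, without passing the adjusted test. They encode GIRK1 and GIRK4, the subunits of the acetylcholine-activated potassium channel that slows the atrium and the sinus node. No overlap in this direction was found in 2 of the 10 genes, against 3.76% of all tested rows, and in 3 of 15 general cardiomyocyte genes, so it is not particular to the atrial genes. Kcnj3 had 2.19, 1.73 and 3.04 FPKM in SRAKO2365, SRAKO2371 and SRAKO2372, against 3.32, 3.53 and 3.26 FPKM in WT2368, WT2379 and WT2378. The WT hearts were close together, and SRAKO2372 came near them. SRAKO hearts averaged 2.32 ± 0.665 FPKM and WT hearts 3.37 ± 0.138 FPKM (SD, n = 3 each), a log2 difference of -0.41 ± 0.14 (SE; limma unadjusted p = 0.0207, adjusted p = 0.999 by Benjamini-Hochberg). On this scale low genes are understated, and SRAKO hearts held 68.8% of the WT mean.

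Kcnj5 had 9.91, 7.79 and 8.56 FPKM in SRAKO2365, SRAKO2371 and SRAKO2372, against 11.9, 11.6 and 9.99 FPKM in WT2368, WT2379 and WT2378. SRAKO2365 and WT2378 were separated by less than the spread within either genotype. In log2, SRAKO minus WT was -0.32 ± 0.12 (SE; limma unadjusted p = 0.0270, adjusted p = 0.999 by Benjamini-Hochberg), and SRAKO hearts held 78.4% of the WT mean. For each of Kcnj3 and Kcnj5 the exact two-sided permutation p was 0.1, the smallest that 3 hearts against 3 allow. With any 1 heart left out, Kcnj3 stayed between -0.57 and -0.28 and Kcnj5 between -0.40 and -0.25, so neither difference rested on WT2379.

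Relative to Myl7 the genotypes did overlap for both channel genes. Kcnj3 stood at 0.303, 0.193 and 0.402 per 100 FPKM of Myl7 in SRAKO2365, SRAKO2371 and SRAKO2372, against 0.559, 0.295 and 0.355 in WT2368, WT2379 and WT2378. Kcnj5 stood at 1.37, 0.870 and 1.13, against 2.0, 0.971 and 1.09 in the same order. WT2368 had the highest ratio for both genes, where it also had the least Myl7. The ratio of Kcnj5 to Kcnj3 was 4.53, 4.50 and 2.81 in SRAKO hearts, against 3.58, 3.29 and 3.06 in WT hearts.

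Stard10, Fgf12 and Gja5 completed the group at lower levels. Stard10, which encodes a phospholipid transfer protein, had 20.6, 15.9 and 14.3 FPKM in SRAKO2365, SRAKO2371 and SRAKO2372, against 18.1, 26.5 and 21.2 FPKM in WT2368, WT2379 and WT2378. SRAKO2365 lay above WT2368, and in 8 of the 9 pairs of a SRAKO and a WT heart the SRAKO value was lower. The genotypes differed in log2 by -0.36 ± 0.18 (SE; adjusted p = 0.999, Benjamini-Hochberg in limma), and -0.22 without WT2379.

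Fgf12 encodes a fibroblast growth factor homologous factor, which stays inside the cell and binds voltage-gated sodium channels. It had 4.28, 3.91 and 3.70 FPKM in SRAKO2365, SRAKO2371 and SRAKO2372, against 3.89, 8.29 and 4.44 FPKM in WT2368, WT2379 and WT2378. WT2379 was the only heart apart from the rest. On the log2 scale, SRAKO differed from WT by -0.34 ± 0.22 (SE; adjusted p = 0.999, Benjamini-Hochberg in limma), and -0.06 without WT2379. The row holds 1 annotated and 1 assembled transcript, of 6 annotated for the gene.

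Gja5, which encodes connexin 40 of atrial and conduction tissue gap junctions and is also made by arterial endothelium, was the weakest member. It had 0.917, 1.74 and 2.11 FPKM in SRAKO2365, SRAKO2371 and SRAKO2372, against 1.92, 1.64 and 2.13 FPKM in WT2368, WT2379 and WT2378. SRAKO2365 alone was low, and WT2379 was the lowest WT heart, unlike for the abundant members. SRAKO minus WT came to -0.19 ± 0.18 in log2 (SE; adjusted p = 0.999, Benjamini-Hochberg in limma), and 0.01 without SRAKO2365. The 10 arterial endothelial markers summed to 53.1 to 55.1 FPKM in SRAKO hearts and 48.4 to 58.3 FPKM in WT hearts, and the sum was 55.1 in SRAKO2365.

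**Figure D3:**
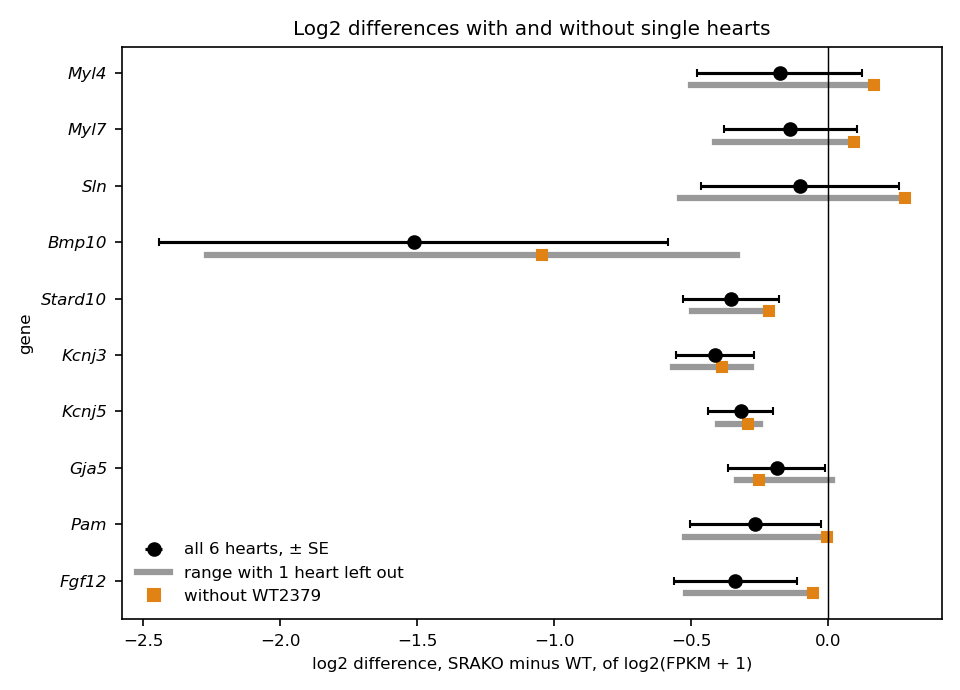
Log2 difference, SRAKO minus WT, of log2(FPKM + 1) for each atrial gene (horizontal axis), with the SE from limma as error bar, the range when 1 heart is left out in grey, and the value without WT2379 as a square. All 10 differences are negative with 6 hearts, and those of Myl4, Myl7 and Sln are above 0 without WT2379.

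By mean FPKM over the 6 hearts, Myl7 (847) was followed by Sln (146), Pam (122), Bmp10 (112) and Myl4 (103). Neighbours among Sln, Pam, Bmp10 and Myl4 differed by less than their spread over hearts. Stard10 (19.4), Kcnj5 (9.96), Fgf12 (4.75), Kcnj3 (2.84) and Gja5 (1.74) came after them. Between these lower genes the values of Kcnj5 and Fgf12 overlapped over hearts, but within each heart Kcnj5 was the higher. Those of Kcnj3 and Gja5 also overlapped, while Stard10 and Kcnj5, and Fgf12 and Kcnj3, did not.

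The 10 genes did not vary as a single block. WT2379 was the highest heart for 8 of them, where it was the highest for 26.5% of all tested rows. WT2368 was the lowest heart for 4 of them, Myl4, Myl7, Sln and Pam, but it was the lowest for 44.9% of all tested rows, so that share is not particular to them. Over the 6 hearts, Pearson's r of log2(FPKM + 1) ran from 0.87 to 0.98 within Myl4, Myl7, Sln and Pam (6 pairs), set together here because all were lowest in WT2368 and highest in WT2379. That choice used the same 6 hearts and by itself favours a high r, so these values describe the choice and test nothing. Fgf12 was about as close to these 4 genes, with an r of 0.94 with Pam, 0.90 with Myl4, 0.81 with Sln and 0.79 with Myl7. Over all 45 pairs it ran from -0.32 to 0.98 with a median of 0.53. Gja5 stood outside, with a negative r in 7 of its 9 pairs, and r between Bmp10 and Myl7 was 0.11. These values share the same 6 libraries and their depth.

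**Figure D4:**
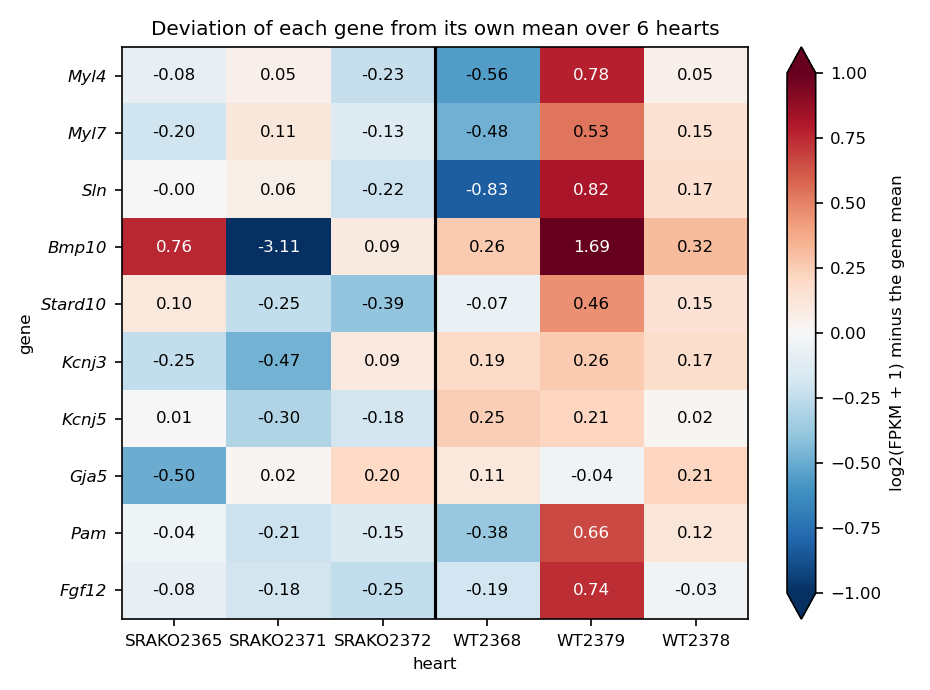
Deviation of each atrial gene (rows) from its own mean over 6 hearts (columns) in log2(FPKM + 1), SRAKO hearts left of the line and WT hearts right of it, with colours capped at 1 in either direction. The WT2379 column is positive for 9 of 10 genes, and the value of -3.11 marks Bmp10 in SRAKO2371.

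The mean deviation over the 10 genes was -0.03, -0.43 and -0.12 in SRAKO2365, SRAKO2371 and SRAKO2372, against -0.17, 0.61 and 0.13 in WT2368, WT2379 and WT2378. Bmp10, at -3.11, weighs heavily on the mean of SRAKO2371. The median deviation was -0.06, -0.20 and -0.16 in SRAKO2365, SRAKO2371 and SRAKO2372, against -0.13, 0.60 and 0.15 in WT2368, WT2379 and WT2378. Rows outside the group were ranked by Pearson's r with the mean, Bmp10 included, over the 6 hearts, among 208 named rows with a mean FPKM of at least 5 and a range of at least 1 on the log2 scale. Among the 10 most alike were Mlana (r = 0.98), Lgals3 (0.955), Entpd4b (0.932), Nppa (0.925), the joint row of H19 and Mir675 (0.876), Dkk3 (0.873), Sbk3 (0.869), a row of Slc8a1 (0.862) and Slc17a7 (0.849). Mlana had 9.56, 4.07 and 7.52 FPKM in SRAKO2365, SRAKO2371 and SRAKO2372, against 6.26, 21.7 and 8.80 FPKM in WT2368, WT2379 and WT2378. All 10 of these rows were highest in WT2379. Nppa, the atrial natriuretic peptide, had 2424, 1829 and 2436 FPKM in SRAKO2365, SRAKO2371 and SRAKO2372, against 1651, 6576 and 2469 FPKM in WT2368, WT2379 and WT2378, a log2 difference of -0.44 ± 0.45 (SE) that was 0.13 without WT2379.

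Other atrial cardiomyocyte genes were split in direction between the genotypes. Of 15 such genes 12 were tested, with 6 higher and 6 lower in SRAKO and a median log2 difference of 0.01, against 0.01 over all rows. Limma with Benjamini-Hochberg adjustment called 0 of them, and 1 was higher at an unadjusted p under 0.05. That gene was Kcna5, which encodes a potassium channel. It had 11.4, 9.28 and 11.6 FPKM in SRAKO2365, SRAKO2371 and SRAKO2372, against 7.56, 7.20 and 9.66 FPKM in WT2368, WT2379 and WT2378. Its log2 difference was 0.37 ± 0.14 (SE), opposite to Kcnj3 and Kcnj5 in sign, and SRAKO2371 lay below WT2378. WT2379 was the lowest heart for Kcna5, where it was the highest for Nppa and Mybphl. The labels give the tissue only as heart, so how far Kcna5 RNA came from atrial cells cannot be told. Mybphl, an atrial myosin-binding protein, had 85.1, 90.5 and 75.6 FPKM in SRAKO hearts, against 67.2, 155 and 98.2 FPKM in WT hearts in the same order, with a log2 difference of -0.27 that was 0.04 without WT2379. Hey1, a Notch target that also stands in the list of arterial endothelial markers, averaged 3.21 ± 1.11 FPKM in SRAKO hearts and 2.62 ± 0.491 FPKM in WT hearts (SD, n = 3 each). WT2379 was the highest heart for 6 of these 12 genes, against 26.5% of all rows.

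Genes listed as partners of the members were near balance, 11 higher and 14 lower of 25 tested of 28, with a median of -0.01. Limma with Benjamini-Hochberg adjustment called 0, and 3 were lower at an unadjusted p under 0.05, Gnao1 and Rgs6 among them. Gnao1, a G-protein alpha subunit that couples receptors to ion channels, had 3.77, 3.23 and 3.80 FPKM in SRAKO2365, SRAKO2371 and SRAKO2372, against 4.02, 6.50 and 4.68 FPKM in WT2368, WT2379 and WT2378. Its log2 difference was -0.38 ± 0.15 (SE), the genotypes did not overlap, and it was -0.22 without WT2379. Rgs6, which speeds the closing of GIRK channels, had 1.23, 0.732 and 0.809 FPKM in SRAKO hearts, against 0.854, 3.01 and 2.62 FPKM in WT hearts in the same order. WT2368 lay within the SRAKO range, and the log2 difference was -0.65 ± 0.28 (SE), and -0.99 without WT2368. The muscarinic receptor Chrm2, the natural trigger of GIRK channels, had 7.13 to 8.66 FPKM in SRAKO hearts and 7.36 to 11.4 FPKM in WT hearts.

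Ventricular cardiomyocyte genes had 9 higher and 5 lower of 14 tested, with a median log2 difference of 0.04, and general cardiomyocyte genes 8 higher and 7 lower of 15, with a median of 0.00. Summed ventricular FPKM was 3435 to 3518 in SRAKO hearts and 2998 to 3854 in WT hearts. Sinoatrial node and conduction genes had 5 higher and 4 lower of 9 tested of 16, with a median of 0.07, and summed to 31.2 to 39.98 FPKM in SRAKO hearts and 29.6 to 40.6 FPKM in WT hearts. Limma with Benjamini-Hochberg adjustment called 0 genes of these 3 lists, and at an unadjusted p under 0.05 there was 1, Rgs6 of the conduction list.

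Markers of other cell types that can hold some of these RNAs were set beside the members. Skeletal muscle, which also uses Sln, was represented by traces, with 9 markers summing to 5.89 to 7.43 FPKM in SRAKO hearts and 5.18 to 7.48 FPKM in WT hearts. The fast myosin Myh2 was listed at 0 in 5 hearts and at 0.0182 FPKM in SRAKO2372. Erythroid markers, of cells that can hold Myl4, summed to 1071 to 2426 FPKM in SRAKO hearts and 1398 to 2097 FPKM in WT hearts, and Myl4 was lowest in WT2368 at an erythroid sum of 2097. Epicardial markers summed to 2.53 to 5.85 FPKM in SRAKO hearts and 3.80 to 5.32 FPKM in WT hearts, and neutrophil markers to 5.01 to 71.1 FPKM in SRAKO hearts and 2.37 to 14.6 FPKM in WT hearts. Sums in SRAKO and WT hearts were 193 to 212 and 195 to 214 FPKM for endothelium, 741 to 777 and 588 to 766 FPKM for smooth muscle and pericytes, and 538 to 564 and 405 to 572 FPKM for fibroblasts. Fat markers had a positive difference in 9 of 9 tested, with a median of 0.65 on the log2 scale and none at an unadjusted p under 0.05. Among 10 arterial endothelial, 10 endothelial, 10 smooth muscle, 10 fibroblast, 5 neutrophil, 5 erythroid, 3 neuron, 2 epicardial and 1 skeletal muscle marker tested, limma with Benjamini-Hochberg adjustment called 0. At an unadjusted p under 0.05, Unc5b (arterial) and Postn (fibroblast) were lower in SRAKO hearts, by -0.33 and -0.29 in log2. At that level Myh11 (smooth muscle, 0.42), Tnnt1 (skeletal muscle, 0.29), S100a8 (1.59) and Retnlg (1.52, both neutrophil) were higher. The skeletal muscle markers Myh4, Myod1 and Myf6 and the erythroid marker Ahsp had no row, so they have no values here. None of the 25901 rows was at 0 in all 6 hearts, so the same holds for every marker that had a row. The part of these markers in the differences of the atrial genes was not tested.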

How the data were processed

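RNA of 6 hearts was sequenced after oligo(dT) selection, per the labels' protocols. The authors deposited FPKM values per gene and heart in 1 table. As named in the submitters' processing notes, the tools were StringTie 1.3.4d, HISAT2 2.0.4, cutadapt 1.9 and edgeR, and the named build is hg38, although 99.6% of the 81263 mouse transcript identifiers matched GENCODE M21 on GRCm38. StringTie joins neighbouring transcripts into loci, and 492 rows carry several symbols.

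Titles gave each heart its genotype. The value log2(FPKM + 1) was fitted by genotype with limma 3.58.1 in R 4.3.3 (variance trend, prior of 3.69 degrees of freedom, two-sided, Benjamini-Hochberg adjustment over 10201 rows, threshold 0.05). The code was tested on simulated data. Shares were tested by exact permutation over hearts. No pair of hearts held identical columns. Named genes were the 10 members, Sra1, Nppa, Myl2, Myl3, Pln, Myh6, per list up to 3 genes lowest in p, and the 10 rows most like the mean of the members. Chrm2 and Myh2 were named after their values were seen. A few genes that this rule names are not reported here. The members and lists were chosen with earlier results of these data known. Alternatives were another pseudocount, other filters, median-ratio scaling, array weights, summed rows and leaving out hearts.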

Additional observations from a re-analysis of the deposited data

How the results depend on the processing

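Without SRAKO2371 and WT2368, the difference in share was -10.9 percentage points for Myl7, -4.12 for Myl4 and -10.3 for Sln, against -5.44, -2.13 and -2.56 with all hearts. That left 2 hearts per genotype, WT2379 among them (exact two-sided permutation p = 0.333, 0.667 and 0.333). Without WT2368 alone the differences were -9.30, -3.73 and -8.43 points, and without SRAKO2371 alone -7.02, -2.52 and -4.40 points, in the same order. No atrial gene passed limma with Benjamini-Hochberg adjustment in any of the 127 values recomputed under the alternatives (smallest adjusted p = 0.718), and 2 of 10 had an unadjusted p under 0.05 with all hearts. With each heart left out in turn, log2 differences ran from -0.50 to 0.17 for Myl4, from -0.41 to 0.092 for Myl7, from -0.54 to 0.28 for Sln, from -0.34 to 0.013 for Gja5, from -0.87 to 0.13 for Nppa and from -0.56 to 0.039 for Mybphl. The difference in share ran from -3.73 to 0.67 percentage points for Myl4 of Myl4 and Myl3 and from -8.43 to 3.31 points for Sln of Sln and Pln. Apart from Gja5, which turned without SRAKO2365, each of these turned its sign only without WT2379. With array weights Nppa was at -0.84, against -0.44 without them. The summed FPKM of the 10 genes, SRAKO minus WT, was -269 with all hearts and 30.9 without WT2379. The number of rows called over the whole table was 2 with all hearts, 1 with a pseudocount of 0.1, 1 when rows had to reach 5 FPKM (which kept 7 of the 10 genes), 0 with no filter (919 at an unadjusted p under 0.05), 0 without both WT2368 and SRAKO2371 (672 at an unadjusted p under 0.05), and 0 to 7 with 1 heart left out (206 to 683 at an unadjusted p under 0.05). The alternatives for Sra1, Nppa and other genes outside the 10 were added after seeing the data. No paired analysis was possible because the hearts of the genotypes share no numbers. With no read counts, depth limits most the reading of Gja5 and Kcnj3, the weakest of the 10 genes.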
